A study of Mus musculus with 4 samples.

Results

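The genes described here are Dnmt1, Dnmt3a, Dnmt3b, Dnmt3l, Tet1, Tet2, Tet3 and Uhrf2. Dnmt1, Dnmt3a, Dnmt3b and the Tet genes encode enzymes that write, maintain or oxidise methylation of cytosine in CpG dinucleotides. Dnmt3l encodes a cofactor of de novo methylation, and Uhrf2 a paralog of Uhrf1. All 8 were found in the mm10 RefSeq gene table, and CpG methylation was read across each gene span plus 5 kb on either side. Of the 628 consecutive 1-kb windows over these regions, 561 held at least 3 CpGs with a value in every sample, out of 1566473 such windows in the whole table. The samples were germ cells of 21-day-old mice, profiled by bisulfite sequencing with adaptors added after conversion. Knockout samples (n = 2) came from Np95fl/fl:Stra8-Cre mice, with a floxed Np95 gene and a Cre recombinase driven by the Stra8 promoter, which is active in premeiotic male germ cells. Control samples (n = 2) came from Np95fl/fl mice, with the same floxed gene and no Cre. The stated question was how DNA methylation is lost in germ cells without Np95, also named Uhrf1.

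CpG methylation is copied after DNA replication by Dnmt1, which Uhrf1 brings to hemimethylated CpGs. Dnmt3a and Dnmt3b are the de novo methyltransferases, Dnmt3l is a catalytically inactive cofactor needed for methylation of the male germline, and Tet1, Tet2 and Tet3 oxidise 5-methylcytosine. Uhrf2 is a paralog of Uhrf1 with a similar domain layout. Dnmt1 is known to use alternative first exons in oocytes, somatic cells and spermatocytes, Dnmt3a is also made as a short isoform from an internal promoter, and Dnmt3l has separate promoters in different germ cell stages. The promoter table lists positions without saying which transcript belongs to which start, so the starts are named here by position. Promoters of housekeeping type usually lie in CpG-dense, unmethylated DNA, whereas gene bodies and CpG-poor DNA are usually methylated in mammalian cells.

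Values are percent methylation per cytosine. They are means over all cells of a sample, so a change in the share of a cell type and a change in the level per cell cannot be told apart. Between 28999710 and 29774194 cytosines had a value per sample, and the read depth behind each value is unknown. Over the cytosines measured in every sample the mean level was 38.1% and 38.4% in knockouts and 69.1% and 72.9% in controls. The CpG-richest starts of 17 measured genes of a germline list, whose promoters are known to be methylated in somatic tissues, had medians of 17.7% and 13.4% in knockouts and 8.59% and 6.51% in controls. The mean level was higher in knockouts at all 17 of them. Over all 21 starts of the list, the test described below called 4 higher, in Mael, Sycp1, Sycp3 and Dazl, and 1 lower, against 0.211% higher and 44.6% lower over all starts of the table. The one called lower was an alternative start of Tdrd1 with 45.8% and 43.2% in knockouts and 90.7% and 92.0% in controls. Starts were measured for 3 of 7 Sertoli cell genes and 4 of 6 Leydig cell genes, and 3 of their 8 starts were called lower and none higher, which is near the shares over all starts. The table holds no expression values, so neither the cell type nor the deletion itself was checked beyond these levels.

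The 250 bases before 6 of the starts are printed here because the contrast between CpG-poor and CpG-dense starts recurs in the results. They are RefSeq sequences on build GRCm38.p6, read 5′ to 3′ on the strand of the gene, in lower case with each CG dinucleotide in capitals (the motif reads CG on both strands). The outermost start of Dnmt1 (chr9:20959889-20960138, minus strand) has 2 CG in this stretch, and the next start (chr9:20952980-20953229) has 7. The 3 starts of Dnmt3l (chr10:78042037-78042286, chr10:78049592-78049841 and chr10:78055085-78055334, plus strand) have 5, 4 and 3. The 5′-most listed start of Dnmt3a (chr12:3806730-3806979, plus strand) has 38 and stands for the CpG-dense starts.
Dnmt1, outermost start: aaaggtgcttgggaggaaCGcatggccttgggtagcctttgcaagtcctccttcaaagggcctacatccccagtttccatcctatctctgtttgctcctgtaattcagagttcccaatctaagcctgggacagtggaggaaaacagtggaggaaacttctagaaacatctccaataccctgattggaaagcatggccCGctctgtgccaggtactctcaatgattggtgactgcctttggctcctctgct
Dnmt1, second start: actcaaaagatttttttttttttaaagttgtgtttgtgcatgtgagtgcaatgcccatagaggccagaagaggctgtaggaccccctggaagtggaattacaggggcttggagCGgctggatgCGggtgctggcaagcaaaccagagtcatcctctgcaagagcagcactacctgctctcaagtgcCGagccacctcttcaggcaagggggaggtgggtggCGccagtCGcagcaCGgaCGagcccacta
Dnmt3l, outermost start: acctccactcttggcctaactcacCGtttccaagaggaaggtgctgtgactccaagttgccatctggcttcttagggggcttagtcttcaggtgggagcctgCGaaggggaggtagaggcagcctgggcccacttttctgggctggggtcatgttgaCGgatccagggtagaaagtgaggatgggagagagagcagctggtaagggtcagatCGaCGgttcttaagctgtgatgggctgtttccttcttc
Dnmt3l, middle start: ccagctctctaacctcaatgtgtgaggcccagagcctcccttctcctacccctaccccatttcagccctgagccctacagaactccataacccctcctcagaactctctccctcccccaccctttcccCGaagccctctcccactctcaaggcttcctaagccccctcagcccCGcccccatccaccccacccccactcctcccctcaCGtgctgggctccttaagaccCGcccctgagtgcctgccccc
Dnmt3l, innermost start: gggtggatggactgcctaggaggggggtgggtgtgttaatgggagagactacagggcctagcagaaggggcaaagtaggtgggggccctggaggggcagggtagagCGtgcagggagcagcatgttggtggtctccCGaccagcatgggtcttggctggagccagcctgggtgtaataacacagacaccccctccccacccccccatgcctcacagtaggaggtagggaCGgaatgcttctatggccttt
Dnmt3a, 5′-most listed start: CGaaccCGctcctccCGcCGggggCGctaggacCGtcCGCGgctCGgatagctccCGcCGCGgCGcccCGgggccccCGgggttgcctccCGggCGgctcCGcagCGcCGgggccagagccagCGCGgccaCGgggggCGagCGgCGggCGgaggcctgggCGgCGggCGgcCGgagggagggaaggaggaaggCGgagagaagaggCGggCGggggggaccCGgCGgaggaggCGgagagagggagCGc
Sequences were matched for 14 listed starts of 8 genes. Over all 32619 promoters of the RefSeq table the median was 6 CG per 250 bases, 28.8% held at most 2, 53.4% at most 6, and 92.2% at least 1. The 4 measured cytosines in the stretch before the outermost Dnmt1 start averaged 59.7% and 66.9% in knockouts and 91.5% and 94.0% in controls. The 12 measured cytosines before the second Dnmt1 start averaged 0.759% and 0.862% in knockouts and 1.41% and 2.36% in controls. The printed stretch of Dnmt3a, with 39 measured cytosines, averaged 0.263% and 0.659% in knockouts and 0.342% and 0.783% in controls. The stretches before the outermost and second starts of Dnmt1 thus stood at opposite ends of the scale in controls.

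Gene bodies of all 8 members were less methylated in knockouts, and most of their CpG-dense starts were unmethylated in both groups. A start was measured from 1000 bp upstream to 500 bp downstream of a listed RefSeq start, or of the 5′ end of the gene span where that lay over 500 bp from a listed start. This gave 14 listed starts and 3 span ends, and all 17 were measured. Levels were compared with limma across all 32201 measured starts, with p-values adjusted by Benjamini-Hochberg over all of them. A start was called where the adjusted p was under 0.05 and the group means lay 10 or more points apart. Of the 17 starts, 4 were called lower and 0 higher in knockouts, against 44.6% and 0.211% of all starts. At an unadjusted p under 0.05 in limma, 5 were lower and 0 higher, against 17881 and 1074 of all 32201 starts. The 4 called starts belonged to Dnmt1, Dnmt3a and Dnmt3l, and each had between 10 and 24 listed CpGs.

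**Figure D1:**
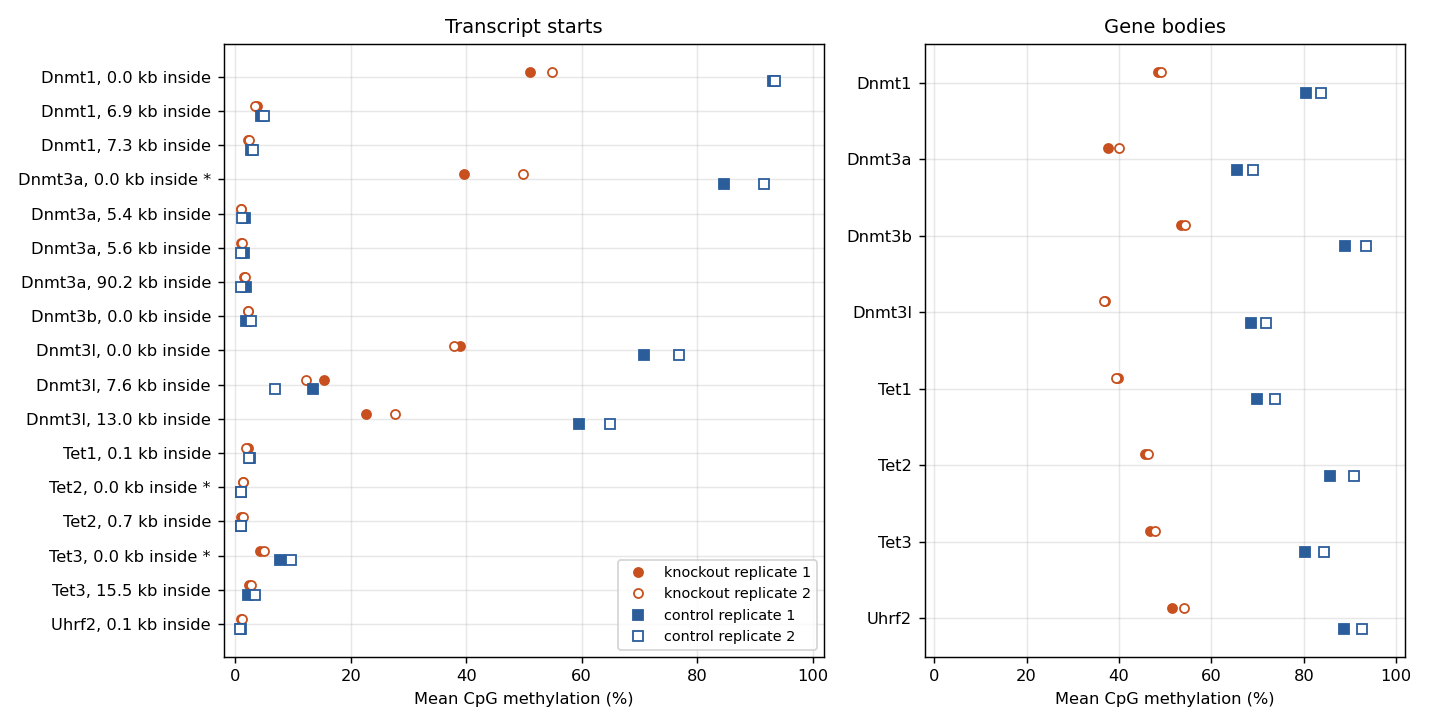
Mean CpG methylation in percent (x axis) of the 17 transcript starts (left panel, with the distance inside the gene span, where an asterisk marks a span end) and the 8 gene bodies (right panel), with 1 point per sample: knockouts as circles, controls as squares. Knockout points lie left of control points in all 8 bodies, while 12 starts have every sample under 10%.

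Dnmt1 is the maintenance methyltransferase that Uhrf1 recruits. Its outermost start, at position 20959888 of chromosome 9, was 51.0% and 54.8% methylated in knockouts, against 93.0% and 93.5% in controls. Both knockouts lay far below both controls, the difference was -40.3 points, and the knockouts kept 56.8% of the control level (limma, adjusted p = 1.39e-05). The starts 6.91 kb and 7.27 kb further inside the gene were unmethylated in every sample. At position 20952979 the level was 3.86% and 3.50% in knockouts and 4.41% and 4.99% in controls (limma, adjusted p = 0.231). At position 20952623 it was 2.30% and 2.34% in knockouts and 2.67% and 3.05% in controls (limma, adjusted p = 0.350). Neither of these inner starts was called, although knockouts were below controls at both. The outermost start window held 15 listed CpGs, against 58 and 71 at the inner ones.

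Dnmt3l, the cofactor of de novo methylation in the germline, was methylated at the outermost and innermost of its 3 listed starts and low at the middle one. The outermost, at position 78042287 of chromosome 10, was 39.0% and 37.8% methylated in knockouts and 70.9% and 76.9% in controls (difference -35.5 points, limma adjusted p = 6.72e-05). The innermost, 13.0 kb inside the gene at position 78055335, was 22.6% and 27.6% in knockouts and 59.5% and 64.9% in controls (difference -37.1 points, limma adjusted p = 1.27e-05). Knockouts were below controls at both of these starts without overlap, and they kept 52.0% of the control level at the outermost and 40.3% at the innermost. The middle start, 7.56 kb inside the gene at position 78049842, was 15.3% and 12.3% in knockouts and 13.4% and 6.88% in controls. There the groups overlapped, and the difference of 3.63 points was not called (limma, adjusted p = 0.168). It rested on single samples, with 0.361 points without control replicate 2, 6.90 without control replicate 1, 2.10 without knockout replicate 1 and 5.16 without knockout replicate 2.

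Within the printed stretches of Dnmt3l, single cytosines showed the same order. Before the outermost start, the 10 measured cytosines averaged 42.0% and 43.5% in knockouts and 78.6% and 85.9% in controls. The cytosine 35 bases before that start was 26.3% and 34.8% in knockouts and 70.6% and 74.1% in controls, and the one 148 bases before it was 47.1% and 58.5% in knockouts and 96.7% and 97.2% in controls. Both positions were lower in knockouts, and the one nearer to the start was lower in controls too. Before the innermost start only 3 cytosines had a value in every sample, with means of 12.8% and 36.3% in knockouts and 76.5% and 82.4% in controls. Before the middle start 2 cytosines were measured, and these averaged 4.55% and 3.57% in knockouts and were at 0 in both controls. A low, shared level at the middle start thus lay between a pair of starts with intermediate to high control levels. The germline list above, with a median difference of 8.26 points over its CpG-richest starts, moved in the direction of the middle start, and its part in the 3.63 points was not tested.

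**Figure D2:**
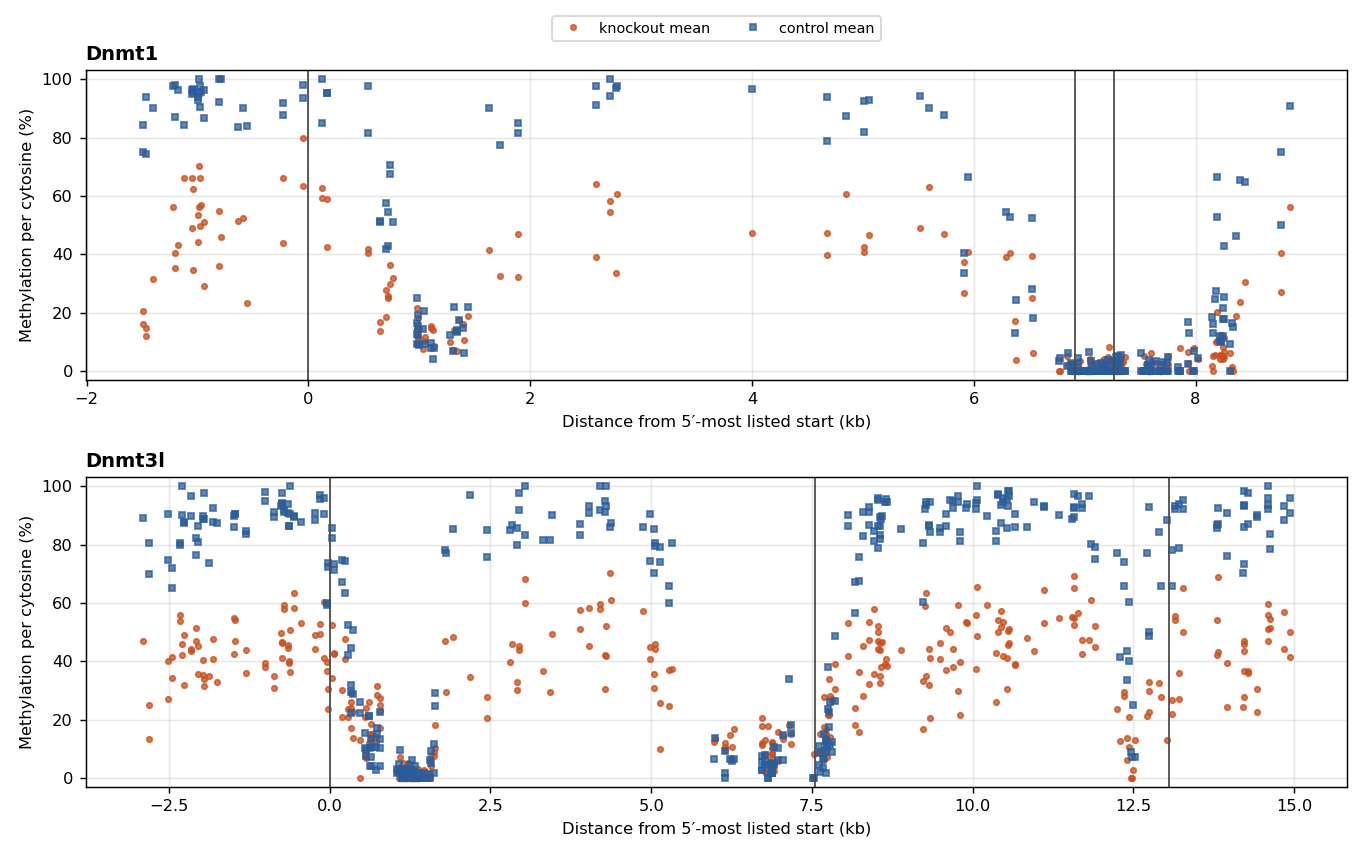
Methylation in percent of each cytosine measured in all samples (y axis) against the distance in kb from the 5′-most listed start (x axis) for Dnmt1 (top) and Dnmt3l (bottom), as the mean of the 2 knockouts (circles) and of the 2 controls (squares). Vertical lines mark the listed starts, and the levels of both groups fall to near 0 around the inner Dnmt1 starts, while the outermost Dnmt1 start lies in highly methylated DNA.

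Dnmt3a, a de novo methyltransferase needed for paternal imprints, had 3 listed starts, all CpG-dense and near 0. At position 3806980 of chromosome 12 the level was 1.04% and 1.05% in knockouts and 1.68% and 1.23% in controls. Close by, at position 3807160, it was 1.09% and 1.11% in knockouts and 1.50% and 1.09% in controls. The internal start at position 3891744, 90.2 kb inside the gene span, had 1.61% and 1.77% in knockouts and 1.82% and 1.00% in controls. None of the 3 was called, and the groups overlapped at positions 3807160 and 3891744. By contrast, the 5′ end of the gene span, which held 10 listed CpGs and lies 5.42 kb upstream of any listed start, was 39.6% and 49.9% methylated in knockouts and 84.6% and 91.6% in controls. The groups were apart there by -43.3 points (limma, adjusted p = 2.10e-05).

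At Dnmt3b, which encodes the other de novo enzyme, the start had 2.26% and 2.18% in knockouts and 1.95% and 2.76% in controls. Tet1, an oxidase of 5-methylcytosine, had 2.17% and 1.84% at its start in knockouts and 2.50% and 2.41% in controls. Uhrf2, the paralog of the deleted gene, had 1.08% and 1.13% in knockouts and 0.990% and 0.846% in controls. At each of these 3 starts the 2 group means were within 1 point of each other, and none was called. The listed start of Tet2, a Tet enzyme without a CXXC domain of its own, had 1.07% and 1.36% in knockouts and 1.00% and 1.02% in controls, and the 5′ end of its gene span had 1.44% and 1.43% in knockouts and 1.00% and 1.09% in controls. Tet3, known for oxidising the paternal genome after fertilisation, had 2.35% and 2.74% at its listed start in knockouts and 2.19% and 3.48% in controls. Its span end, 15.5 kb upstream, had 4.32% and 4.92% in knockouts and 7.84% and 9.71% in controls. At this span end the groups did not overlap and the adjusted p was 0.00307 in limma, but the difference of -4.15 points was under the 10-point minimum.

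Together, 11 starts in 7 of the genes had a control mean under 5%, with 58 to 204 listed CpGs each. Single samples at these 11 starts ranged from 1.04% to 3.86% in knockouts and from 0.846% to 4.99% in controls. The differences ran from -1.02 to 0.39 points, and the lowest adjusted p was 0.178 in limma. Of all 17071 starts in the table with a control mean under 20%, 0.135% were called lower and 0.398% higher. Of 13160 starts with a control mean of at least 50%, 99.7% were called lower, so the calls at all 4 member starts in that range are near the background. The median level of all 12601 starts with at least 50 listed CpGs was 1.32% in knockouts and 1.38% in controls. For the 15643 starts with fewer than 30 listed CpGs it was 41.7% in knockouts and 86.2% in controls.

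**Figure D3:**
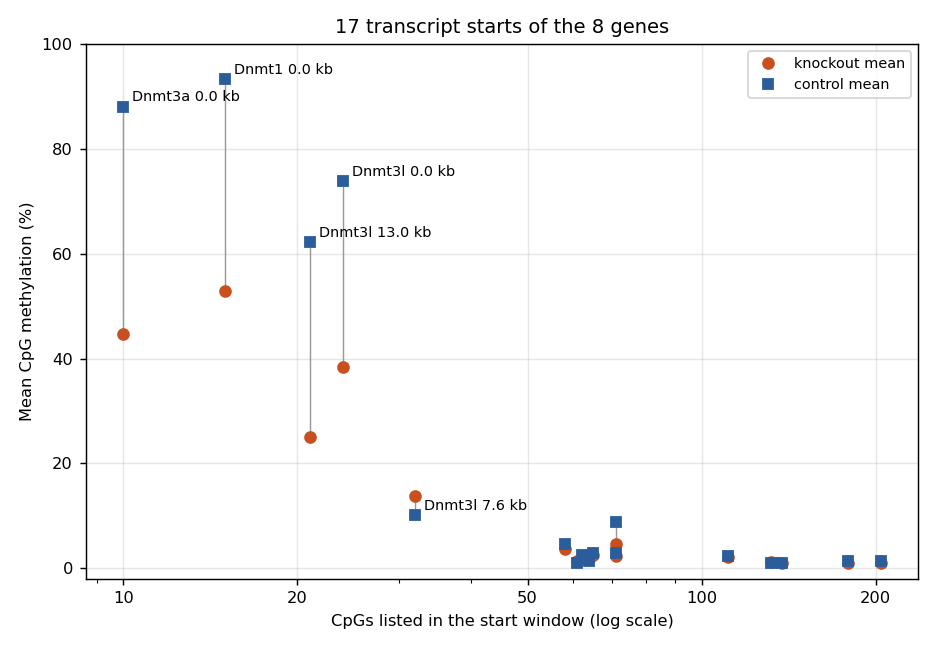
Mean CpG methylation in percent (y axis) of the 17 starts against the number of CpGs listed in the start window (x axis, log scale), as knockout means (circles) joined to control means (squares). The starts with 58 or more CpGs lie under 10% in both groups, and the 4 starts called lower have at most 24.

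These start calls rest on a spread shared between starts. When each start was tested on its own spread alone, all 4 lost the call, with adjusted p from 0.0603 to 0.0784 in limma, and 29 of all 32201 starts (0.0901%) were then called lower.

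Across the gene bodies, the spans trimmed by 2000 bp at each end, all 8 members were called lower in knockouts and 0 higher. The background was 96.9% of 15776 protein-coding genes called lower and 0.0127% called higher. The groups did not overlap in any of the 8 bodies, and the share of all bodies without overlap was not counted. The adjusted p ran from 5.08e-25 to 6.37e-12 in limma, and from 0.0179 to 0.0187 on each body's own spread. Over the members the median body level was 46.6% in knockouts and 82.2% in controls, with a median difference of -34.2 points and 57.6% retained, against -37.8 points and 55.6% retained over all bodies.

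The most methylated bodies were those of Dnmt3b and Uhrf2. Dnmt3b had 53.4% and 54.2% in knockouts and 89.0% and 93.5% in controls (difference -37.4 points). Uhrf2 had 51.6% and 54.1% in knockouts and 88.6% and 92.6% in controls (difference -37.8 points). The samples of these 2 genes overlapped within each group, so their order was not resolved. Tet2 had 45.7% and 46.3% in knockouts and 85.6% and 90.8% in controls, and its difference of -42.2 points was the largest among the member bodies. Among all bodies 11.8% fell by as much or more. Tet3 had 46.7% and 47.8% in knockouts and 80.2% and 84.4% in controls (difference -35.1 points), and Dnmt1 had 48.5% and 49.1% in knockouts and 80.5% and 83.6% in controls (difference -33.3 points). In controls the samples of Tet3 and Dnmt1 overlapped, whereas in knockouts both Dnmt1 values were above both Tet3 values.

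Lower body levels were found in Tet1, Dnmt3l and Dnmt3a. Tet1 had 39.8% and 39.3% in knockouts and 69.9% and 73.8% in controls (difference -32.3 points). Dnmt3l had 36.9% and 36.8% in knockouts and 68.5% and 71.8% in controls (difference -33.3 points). Dnmt3a had 37.6% and 40.1% in knockouts and 65.5% and 69.0% in controls, and its difference of -28.4 points was the smallest among the members. In controls, neighbours in the order of these 3 genes overlapped in their samples. In knockouts Tet1 and Dnmt3a overlapped, and both Dnmt3l values lay below those of the other 2 genes. The internal starts lie inside these bodies. With the windows around the genes' own starts left out, a choice made after seeing the data, the Dnmt3a body had 45.2% in knockouts and 78.4% in controls, and the Dnmt3l body 43.8% in knockouts and 85.5% in controls. The Dnmt1 body then had 53.5% in knockouts and 90.2% in controls, and the Tet3 body 50.2% in knockouts and 87.6% in controls.

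Promoters were set against bodies by the gap, the body level minus the level at the 5′-most listed start in each sample. This signed value was called lower in knockouts in 6 genes and higher in 0, against 80.9% lower and 6.56% higher over 12247 genes. In the 6 genes the gap was above 0 in every sample, so it was narrower in knockouts. An equal retained share at start and body also narrows the gap. In Tet2 the gap was 44.6 and 44.9 points in knockouts and 84.6 and 89.8 points in controls, a difference of -42.4. In Dnmt3a it was 36.5 and 39.0 points in knockouts and 63.8 and 67.8 points in controls, a difference of -28.0. The other called genes, Uhrf2, Dnmt3b, Tet3 and Tet1, lay between these with -38.0, -37.3, -34.8 and -31.9 points (limma, adjusted p from 6.47e-43 to 1.30e-23 over the 6 genes). On each gap's own spread the adjusted p ran from 0.00938 to 0.0109 in limma. In each of the 6 the start differed by under 1 point between the group means, so nearly all of the change in the gap was change in the body.

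Dnmt1 and Dnmt3l had no such gap, since the body mean, inner starts included, was near or below that of the 5′-most start. With start windows left out of the bodies, as above, the Dnmt3l body had 43.8% in knockouts and 85.5% in controls. Its outermost start had means of 38.4% in knockouts and 73.9% in controls. The Dnmt1 body then had 53.5% in knockouts and 90.2% in controls, and its outermost start 52.9% and 93.3%. Gaps from bodies without start windows were not tested. The Dnmt1 gap was -2.49 and -5.78 points in knockouts and -12.5 and -9.85 points in controls. Its body, inner starts included, was thus below its outermost start in every sample. The knockout values were nearer to 0, and the difference of 7.06 points was not called (limma, adjusted p = 0.0931). The difference was 8.70 points without knockout replicate 2. The Dnmt3l gap was -2.07 and -1.02 points in knockouts and -2.39 and -5.08 points in controls (difference 2.19, limma adjusted p = 0.601). With the CpG-richest listed start in its place, chosen after seeing the data, both genes showed a narrower gap: Dnmt1 had 46.2 and 46.7 points in knockouts and 77.8 and 80.6 points in controls, and Dnmt3l 21.6 and 24.5 points in knockouts and 55.1 and 64.9 points in controls. The direction for these 2 genes therefore depended on which of their starts was used, and the body level on whether the inner starts were counted.

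In the 1-kb windows, 522 of the 561 member windows (93.0%) were called lower in knockouts and 0 higher, against 93.4% and 0.137% of all windows of the table. At an unadjusted p under 0.05 in limma, 2 member windows were higher, and on each window's own spread 1 was. Of all 1566473 windows, 10263 and 3726 were higher in these 2 ways. By class, 8 of 22 windows at starts, 452 of 473 in bodies and 62 of 66 in flanks were called lower. The median body window had 49.6% in knockouts and 89.9% in controls, and the median flank window 45.3% in knockouts and 89.0% in controls. At start windows the medians, taken separately in each group, were 7.22% in knockouts and 6.85% in controls. The median of the differences within start windows was -1.85 points. Over all windows of the table the medians were 45.1% in knockouts and 88.6% in controls. With each window's own spread alone 342 member windows were called lower, against 54.9% of all windows under that setting.

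**Figure D4:**
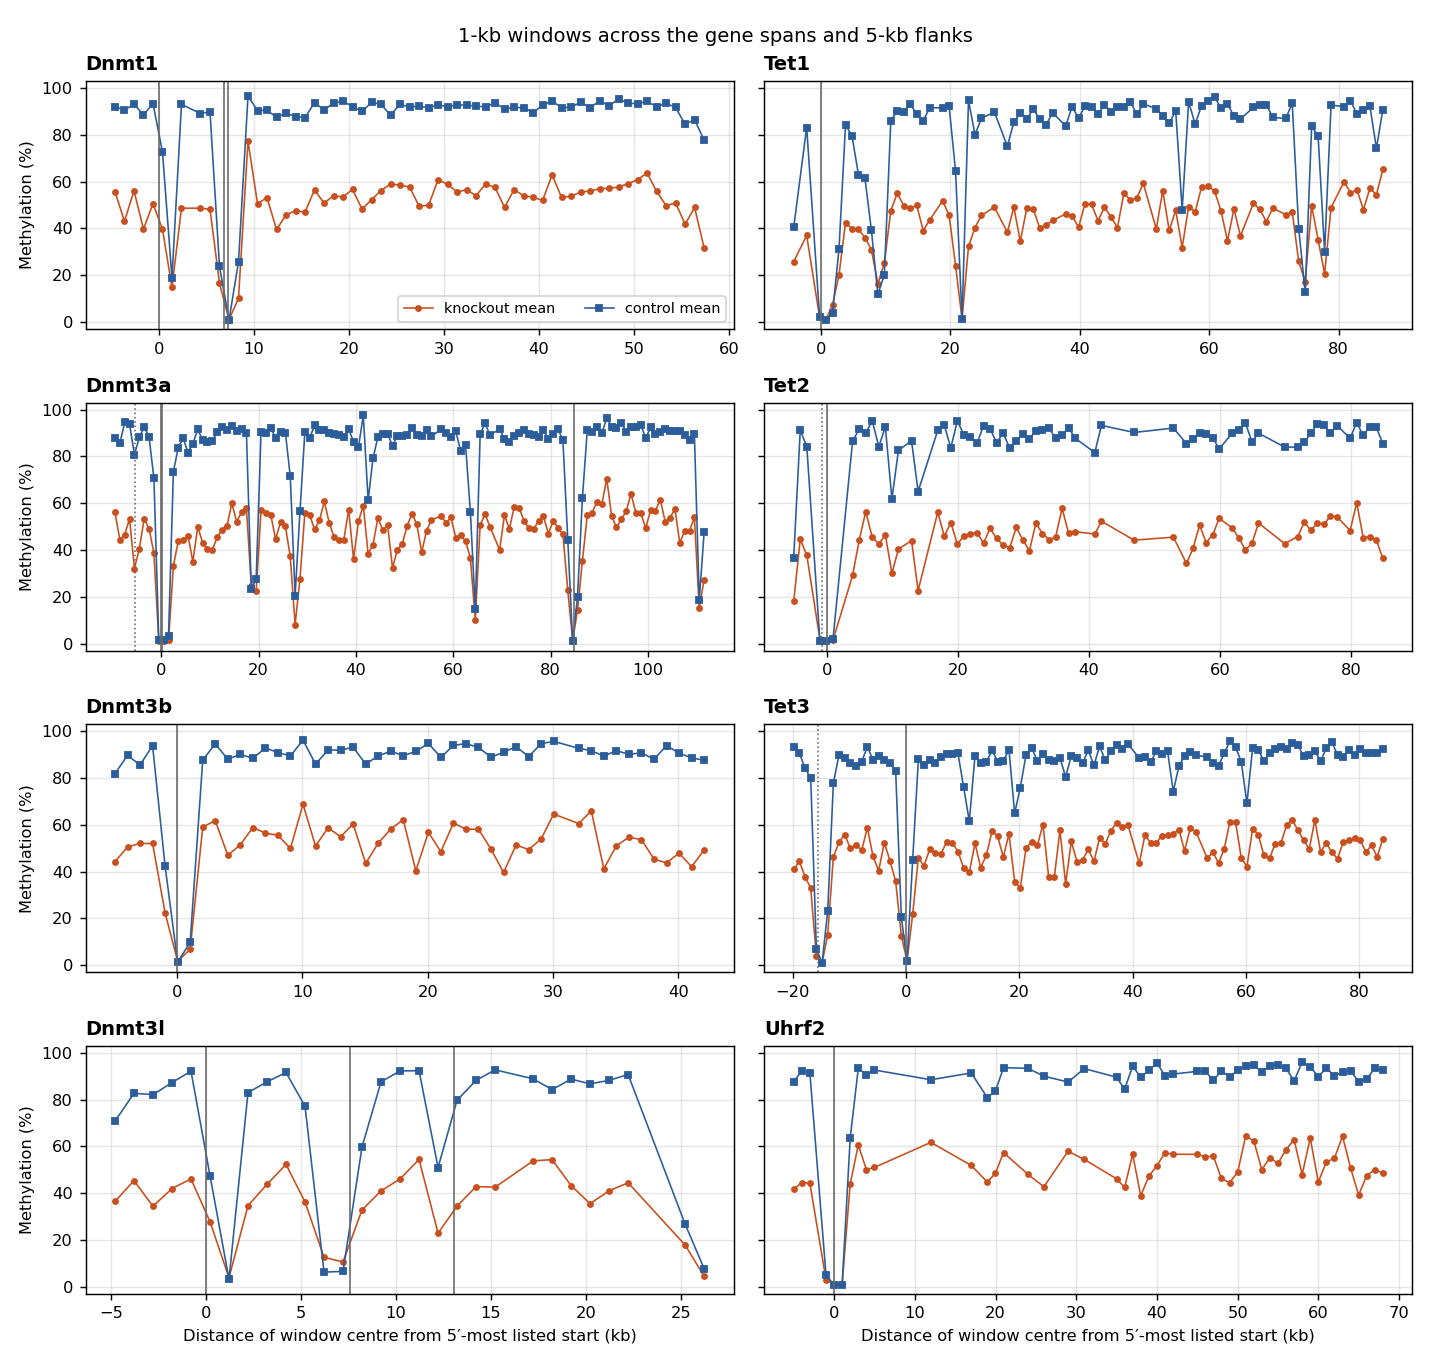
Mean CpG methylation in percent (y axis) of each kept 1-kb window against the distance in kb of its centre from the 5′-most listed start (x axis), in the direction of transcription, for the 8 genes, as knockout means (circles) and control means (squares) joined by lines. Solid vertical lines mark listed starts and dotted lines span ends, and control profiles near 90% are broken by short dips where both groups come close together.

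All 419 body windows with a control mean of at least 80% were called lower, with a median of 50.7% in knockouts and 90.4% in controls. They kept a median of 56.2% of the control level, with single windows from 33.8% to 80.1%, against a median of 52.6% over all windows of the table at that control level, of which 99.9% were called lower. By gene the median retained share of these windows was lowest in Dnmt3l (48.7%, 13 windows), Tet2 (51.7%, 54 windows) and Tet1 (52.9%, 57 windows). It was 57.2% in Dnmt3a, 57.8% in Tet3 and 58.0% in Uhrf2, and highest in Dnmt1 (59.6%, 47 windows) and Dnmt3b (59.8%, 36 windows). Windows of 1 gene share their samples, so this order is a description without a test. The top of the range was a Dnmt1 window with 3 measured CpGs (chr9:20950001-20951000), with 85.6% and 69.1% in knockouts and 95.7% and 97.4% in controls, singled out after its values were seen.

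**Figure D5:**
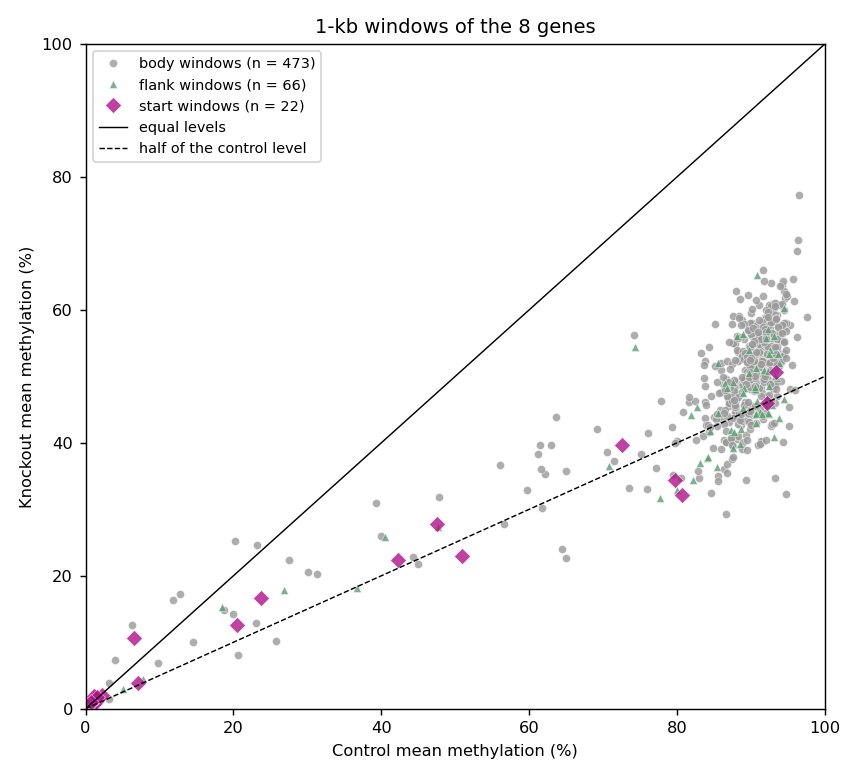
Knockout mean against control mean methylation in percent for the 561 member windows, with body windows as circles, flank windows as triangles and start windows as diamonds. The solid line marks equal levels and the dashed line 50% of the control level, and highly methylated windows lie well below the solid line, while windows under 20% in controls scatter around equality.

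Of all member windows, the one with the largest fall lay in the body of Tet1 and is named for that value. At chr10:62864001-62865000, with 5 of 9 listed CpGs measured, the level was 33.1% and 31.6% in knockouts and 93.5% and 96.0% in controls (difference -62.4 points). Among all windows, 0.156% fell by as much. The adjoining window on the promoter side (chr10:62865001-62866000), with 28 CpGs and 21.8 kb from the listed start, had 1.24% and 1.42% in knockouts and 1.22% and 1.17% in controls. The largest fall of the Tet1 body thus bordered an internal stretch without methylation in either group. That stretch also overlaps Gm51805, another annotated gene.

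In the Tet2 body the largest fall (chr3:133540001-133541000) was 24.8% and 33.7% in knockouts, against 84.9% and 88.4% in controls. Of all windows, 0.907% fell as much as its -57.4 points. In the Dnmt3a body the largest fall was 20.8% and 44.0% in knockouts and 77.4% and 91.9% in controls (chr12:3854001-3855000, difference -52.2 points). The knockouts differed from each other there by more than 20 points. The largest falls in the bodies of Dnmt3b, Dnmt3l, Uhrf2, Tet3 and Dnmt1 were smaller, from -51.4 points in Dnmt3b to -48.0 points in Dnmt1. Such falls were common in the table, since 6.04% of all windows fell as much as the Dnmt3b one and 14.7% as much as the Dnmt1 one.

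Windows with little methylation in controls left little room for a call. A window under 10% in controls cannot be called lower, since a call needs 10 points. The median control level of the member windows under 20% in controls was 2.73%. Of 30 member windows with a control mean under 20%, 0 were called in either direction, and both knockouts were below both controls in 10 and above them in 9, against 25.7% below and 26.8% above over all windows in that range. Of 69565 such windows in the whole dataset, 507 were called lower and 2119 higher. Among all member windows 10 (1.78%) had both knockouts above both controls, against 1.22% of all windows. Tet1 held 4 of these 10. At chr10:62812001-62813000, 74.8 kb inside Tet1, the level was 18.6% and 16.0% in knockouts and 12.9% and 12.7% in controls (limma, adjusted p = 0.181). At chr10:62885001-62886000, 1.82 kb inside, it was 6.36% and 8.42% in knockouts and 4.85% and 3.05% in controls. There the adjusted p was 0.0164 in limma, with a difference of 3.44 points under the 10-point minimum.

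A window of Tet1 at chr10:62878001-62879000 depended on 1 sample. It had 23.5% and 9.20% in knockouts and 13.1% and 10.6% in controls, and it was called higher without knockout replicate 2 (11.7 points, adjusted p = 0.00787 in limma). In Dnmt3l the window beside the middle start (chr10:78048001-78049000), with 7 of 13 CpGs measured, had 15.9% and 9.24% in knockouts and 9.11% and 3.41% in controls. Its difference was 6.31 points (limma, adjusted p = 0.0268), again under the minimum, and it ran from 2.98 to 9.65 points with 1 sample left out. The groups overlapped in this Tet1 window, and in the Dnmt3l window the lower knockout lay just above the higher control.

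Other body windows with low control levels lay close to starts or inside the genes. In Dnmt1 the lowest body window (chr9:20958001-20959000), 1.39 kb inside the outermost start, had 15.1% and 14.5% in knockouts and 21.2% and 16.4% in controls (limma, adjusted p = 0.301). In Dnmt3a, 64.5 kb from the 5′-most listed start, a window with 30 measured CpGs (chr12:3871001-3872000) had 8.87% and 11.3% in knockouts and 16.5% and 12.7% in controls (limma, adjusted p = 0.117). In Dnmt3l the lowest body window (chr10:78043001-78044000), which also overlaps Aire, had 4.46% and 3.20% in knockouts and 2.57% and 3.91% in controls. In Tet3 a window with 124 measured CpGs beside the span end (chr6:83456001-83457000) had 1.16% and 0.791% in knockouts and 0.979% and 0.820% in controls. None of these was called, and in Dnmt3l and Tet3 the groups overlapped. The smallest change in Dnmt3a (chr12:3825001-3826000) was at an intermediate level, with 23.1% and 26.3% in knockouts and 24.1% and 22.3% in controls.

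Some windows at the edges of unmethylated starts, in Dnmt3b and Tet3, lay above the level of the start itself. Upstream of the Dnmt3b start (chr2:153648001-153649000) the level was 20.4% and 24.3% in knockouts and 36.7% and 47.9% in controls, and the window was called lower (limma, adjusted p = 0.00281). This call was lost without control replicate 2, where the difference was -14.3 points (adjusted p = 0.0595). Just downstream (chr2:153650001-153651000) it was 8.13% and 5.50% in knockouts and 9.56% and 10.1% in controls, and was not called (limma, adjusted p = 0.111). At the listed start of Tet3 the upstream window (chr6:83442001-83443000) had 12.0% and 13.1% in knockouts and 17.7% and 23.2% in controls, a difference of -7.91 points under the minimum, and of -5.13 points without control replicate 2. Knockouts were below controls in each of these edge windows of Dnmt3b and Tet3. Beside some unmethylated starts of other genes, body windows were near 0 in both groups. Group means were 1.07% in knockouts and 0.738% in controls in Uhrf2 (chr19:30031001-30032000). They were 1.14% and 1.02% in Tet1 (chr10:62886001-62887000), 1.46% and 1.89% in Tet2 (chr3:133543001-133544000), and 1.46% and 3.24% in Dnmt3a (chr12:3808001-3809000).

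Other genes of DNA methylation maintenance, reading, removal and methyl supply were read in the same way from a list of 35, of which 29 had a measured start. Of their 43 starts, 5 were called lower and 0 higher, against 44.6% and 0.211% of all starts. The called listed starts were in Zbtb38, a reader of methylated DNA, Zfp57, which keeps methylation at imprinted regions, and Lig1, the replicative DNA ligase. Zbtb38 had 49.0% and 47.6% in knockouts and 89.3% and 93.1% in controls at position 96731675 of chromosome 9. Zfp57 had 51.2% and 49.6% in knockouts and 83.6% and 95.0% in controls at position 37001163 of chromosome 17, and Lig1 had 60.3% and 52.8% in knockouts and 84.4% and 86.7% in controls at position 13277175 of chromosome 7. As at Dnmt1, each of these genes also had CpG-rich listed starts that were near 0 in both groups. The other called positions were the span ends of Idh2, which supplies the Tet cofactor 2-oxoglutarate, and of Usp7, a deubiquitinase that binds Dnmt1 and Uhrf1. Over the CpG-richest start of each of the 29 genes, the median level was 1.06% in knockouts and 1.27% in controls. Of 28 bodies 27 were called lower, against 96.9% of all bodies, with a median difference of -35.5 points and 58.5% retained.

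Genes whose 8 values (start and body in 4 samples) were nearest to those of a member were sought among 12247 genes. For Dnmt1 these were Pla2g4c, Fermt3 and Tnk2, at distances of 5.40, 6.86 and 6.98 points. For Dnmt3l they were Gm281, Dixdc1 and Myo1f, at 5.26, 5.61 and 6.26 points. Pla2g4c, for example, had 47.0% and 53.8% at its start in knockouts and 92.3% and 94.1% in controls. These genes were picked as nearest on the same values, so their closeness follows from the choice. In each of them the start was methylated, as at the outermost starts of Dnmt1 and Dnmt3l.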

How the data were processed

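The deposited table gives, per the file headers, 1 value per CpG cytosine and sample. Its unit is the percent of reads methylated, as the authors deposited it, and the table title names a minimum of 10 reads. The build was mm10, per the submitters' processing notes, and for the aligner and the caller the sources used here give no name. Of 37230584 listed cytosines, 22421484 (60.2%) had a value in all 4 samples and were used. Depth per value is unknown, so values were weighted equally and no interval was computed.

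Region levels were means over cytosines. Starts and sequences came from RefSeq tables for GRCm38.p6, the same assembly as mm10, and bodies were gene spans trimmed by 2000 bp. Fits used limma 3.58.1 (R 4.3.3) with a trended, robust prior on log2((m + 0.01)/(1 − m + 0.01)) of the fraction m, over all windows, starts or protein-coding bodies (at least 3, 3 and 10 CpGs), with Benjamini-Hochberg adjustment. Calls needed an adjusted p under 0.05 and 10 points, and the gap, tested in points, only the p. For 98.9% of bodies the p rests on a spread pooled over bodies, and for 94.3% of gaps on a spread pooled over gaps. The fits were tested on simulated data. Nothing in the labels says that replicates were separate animals, so p-values reflect spread among these samples, possibly technical.

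All 8 genes are named, with windows at starts and the body windows of lowest control level, largest fall and smallest change, and the 3 genes nearest to members with a called 5′-most listed start. Members and lists were chosen with earlier results of these data known. Alternatives were the cytosines, strand weights, spread, scale, minimum difference, CpG minimum, window edges, replicate block and each replicate left out. Python 3.11.15, NumPy 2.4.6, pandas 2.3.3 and Matplotlib 3.10.9 were also used.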

Additional observations from a re-analysis of the deposited data

How the results depend on the processing

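All 8 gene bodies were called lower under every alternative tried, and 6 gaps lower under each that kept the 5′-most start. Windows called lower, 522 with the settings of the report, numbered 342 on their own spread alone and 262 of 298 tested with at least 10 CpGs. Over the whole table, 54.9% of windows were called lower on their own spread, and 420616 of 493179 with at least 10 CpGs. Of all bodies, 15149 of 15776 were called lower on their own spread, and 12347 of 12527 with ends trimmed by 5000 bp. Windows called higher, 0 in the report, numbered 2 with no minimum difference (in Dnmt3l and Tet1), against 10042 of all 1566473 windows. Starts called lower numbered 4 in the report, 0 on their own spread alone, 3 of 16 tested with at least 10 CpGs, and 5 with 2000 bp upstream or no minimum difference. The added start was the span end of Tet3 (with 2000 bp upstream, -12.6 points, adjusted p = 7.09e-14 in limma). Of all starts, 9639 of 27147 were called lower with at least 10 CpGs. With 2000 bp upstream 16671 of 33017 were, and with no minimum difference 17163 of 32201. Gaps called higher in knockouts as a signed value numbered 0 in the report. They numbered 1, at Dnmt1, on each sample's own cytosines (9.16 points) and with 2000 bp upstream (11.4 points). Over all genes, 779 of 12247 and 903 of 12380 gaps were called higher with these settings, in that order. Without knockout replicate 2 the Dnmt1 gap differed by 8.70 points. With the CpG-richest start, chosen after seeing the data, the gap was -32.7 points for Dnmt1 and -36.9 points for Dnmt3l, both called in the opposite direction to the uncalled values of the report. Deviations of same-numbered samples were weakly correlated (r = 0.0270 over windows, 0.0968 over starts and 0.0756 over bodies). This cannot show whether samples were paired, and the labels give no pairing. With the replicate number as a block, 523 windows, 4 starts, 8 bodies and 6 gaps were called lower. Over all regions, 1466197 of 1566473 windows, 14415 of 32201 starts, 15290 of 15776 bodies and 9921 of 12247 gaps were called lower in that setting. A lone sample in a group was taken to vary as much as the other group. A sign change was not counted where neither value was called. Unknown read depth and 2 samples per group limit all single-start and single-window values, and the causes of these changes were not tested.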
